A study of Mus musculus with 12 samples.

Results

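The 38 genes described here encode proteins of epithelial cell junctions, keratins and the apical cortex, together with 4 factors of the epithelial transcription and splicing programme. The rule lists them by name, as barrier genes tied to IFN-γ responses of the gut epithelium, and uses no measured value. Of the 15002 genes in the tables, 26 belonged to this set. Levels of the other 12 (Cdh1, Epcam, Ocln, Marveld2, Cldn3, Cldn4, Cldn7, Cldn23, Dsg2, Dsc2, Gjb2 and Esrp1) were not analysed here. RNA-seq was performed on IEC4.1 cells, a line from the intestinal epithelium of newborn mice, in 4 groups of 3 libraries that the study describes as biological triplicates. In siR_Ctrl, cells labelled wild type had received a scrambled siRNA, and in siR_Ctrl + IFN-γ these cells had also received the cytokine IFN-γ. In siR_Nostrill, the lncRNA Nostrill was targeted with a pool of 3 siRNAs, and in siR_Nostrill + IFN-γ these cells had also received IFN-γ. Transfection with an siRNA was thus common to all groups, all cells were of 1 line, and the labels give 24 h for each library, although the study elsewhere gives a shorter exposure to IFN-γ. The targeted lncRNA was not analysed here, and its knockdown was not checked in these libraries. The libraries held 17824306 to 19093204 reads on genes, with a median of 18153496. Irf1, an early target of IFN-γ signaling, was at 50.9 ± 4.05 FPKM (SD, n = 3) in siR_Ctrl and 578 ± 15.6 in siR_Ctrl + IFN-γ, and at 57.3 ± 3.21 and 543 ± 6.96 in the siR_Nostrill groups. FPKM counts fragments scaled for the length of the transcript and the mapped reads of the library, so levels of different genes can be set side by side.

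Epithelial cells are held together by 3 kinds of junction. Tight junctions seal the space between cells with strands of claudins, occludin and JAM proteins, which scaffolds such as ZO-1 tie to actin. Adherens junctions couple the cadherin Cdh1 through catenins to actin, and desmosomes couple desmosomal cadherins through plakoglobin, plakophilins and desmoplakin to keratin filaments. IFN-γ is known for loosening the barrier of cultured gut epithelium.

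The label of these cells was checked against defining markers. Among 18 markers of intestinal epithelium 11 were listed, and their summed level was between 2.51 and 3.99 FPKM in the 12 libraries. Most of that sum was Dclk1, a tuft cell kinase also made by other cells, with a mean of 2.75 FPKM. The intestinal master regulator Cdx2 had 1 read in all. Of 5 general epithelial markers, all of them members of the present set, 3 were listed (Krt8, Krt18 and Krt19), with a summed level between 1.17 and 3.05 FPKM. This sum leaves out Cdh1 and Epcam, whose levels were not analysed here and are not known. By contrast 18 of 18 mesenchymal markers were listed and summed to between 2310 and 2930 FPKM, with Vim, which made most of the sum, at 1740, Col1a1 at 229, Acta2 at 135 and Fn1 at 109 FPKM. The filter on low counts was passed by 16 of them, and not by Thy1 (0.0333 FPKM) and Lum (0.202 FPKM). N-cadherin (Cdh2) was at 21.9 FPKM, and Twist1, Snai1, Snai2, Zeb1 and Zeb2, repressors of epithelial genes, were at 34.3, 14.9, 14.3, 8.75 and 5.2 FPKM. Immune markers summed to 1.3 to 2.45 FPKM, most of it Cd68 with a mean of 1.55 FPKM, with Csf1r at 0.273 and Ptprc at or near 0. Endothelial markers summed to 0.01 to 0.18 FPKM. The listed transcripts therefore went against the epithelial label, and the members are called junction and keratin genes here. In bulk RNA, fewer cells of a type and less RNA per cell cannot be told apart.

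**Figure D1:**
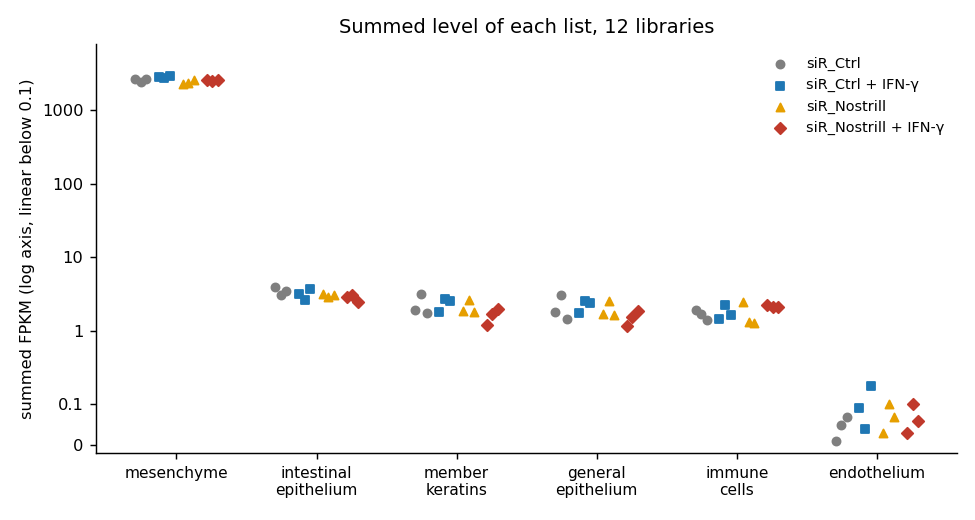
Summed FPKM of each marker list and of the 5 member keratins (y axis, logarithmic above 0.1 FPKM) in each library, coloured by group. The mesenchymal list lies between 2310 and 2930 FPKM, and both epithelial lists lie between 1.17 and 3.99 FPKM.

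Among the junction and keratin genes, the catenins Ctnnb1 and Ctnna1 had the highest levels, whereas 4 of the 5 keratins and desmoplakin were near 0. A mean above 1 FPKM over the 12 libraries was found for 13 of the 26 listed members, and above 10 FPKM for 8. A mean of at most 0.2 FPKM was found for 12. The filter on low counts was passed by 15 members, which could be tested, whereas it was passed by 79.3% of all listed genes.

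In the strands of the tight junction, 2 genes were well expressed. F11r, which encodes JAM-A, was at 23.31, 26.1 and 26.56 FPKM in siR_Ctrl, 27.81, 26.56 and 27.1 in siR_Ctrl + IFN-γ, 24.57, 25.55 and 26.47 in siR_Nostrill, and 25.45, 26.28 and 26.37 in siR_Nostrill + IFN-γ. This was one of the steadiest members, with a highest value only 1.19 times the lowest over all libraries. Cldn12, a claudin found in gut and other tissues, was at 25.0, 18.02 and 19.71 FPKM in siR_Ctrl, 22.8, 18.55 and 26.72 in siR_Ctrl + IFN-γ, 17.85, 17.81 and 20.32 in siR_Nostrill, and 28.73, 29.03 and 26.61 in siR_Nostrill + IFN-γ. The last 3 were above every library of siR_Nostrill, while the siR_Ctrl groups overlapped with each other. Cldn15, a claudin that forms cation channels in the gut, and Cldn1, a sealing claudin, had means of 0.259 and 0.123 FPKM. Cldn2, the pore-forming claudin of leaky epithelia, had 1 read, in siR_Nostrill replicate 3 (0.04 FPKM), and was at 0 in the other 11 libraries. Where a library had no read of a gene, up to 3 reads are allowed, that is 0.157 to 0.168 CPM depending on depth, by counting error only.

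Of the 3 scaffolds of the tight junction, Tjp1 and Cgn were expressed at a moderate level and Tjp3 was near 0. Tjp1, which encodes ZO-1, was at 16.01, 6.9 and 8.18 FPKM in siR_Ctrl, 9.34, 4.8 and 12.16 in siR_Ctrl + IFN-γ, 6.18, 5.39 and 8.89 in siR_Nostrill, and 12.27, 9.78 and 8.37 in siR_Nostrill + IFN-γ. Replicates of Tjp1 thus spread up to 2.53-fold within 1 group. Cgn, which encodes the ZO-1 partner cingulin, had a mean of 6.21 FPKM and a range from 4.46 to 9.04. Tjp3, for ZO-3, had a mean of 0.0667 FPKM.

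The catenins of the adherens junction were the most abundant members. Ctnnb1, for β-catenin, which also transmits Wnt signals, was at 179.74, 138.76 and 150.69 FPKM in siR_Ctrl, 146.2, 116.08 and 147.98 in siR_Ctrl + IFN-γ, 132.3, 130.42 and 148.81 in siR_Nostrill, and 146.77, 133.66 and 134.52 in siR_Nostrill + IFN-γ. Ctnna1, for the actin-linking α-catenin, was at 115.84, 112.53 and 115.1 FPKM in siR_Ctrl, 106.87, 103.84 and 109.29 in siR_Ctrl + IFN-γ, 104.39, 101.87 and 110.53 in siR_Nostrill, and 99.64, 100.17 and 100.05 in siR_Nostrill + IFN-γ. The groups of Ctnnb1 overlapped, its log2 fold changes were -0.13, -0.01, -0.18 and -0.05 (SE 0.10 each) in the 4 comparisons described further on, and none was called (edgeR adjusted p of 0.623, 0.978, 0.39 and 0.86). Ctnna1 was lowest in FPKM in the 3 libraries of siR_Nostrill + IFN-γ, whereas in TPM these overlapped with the other groups and the mean was lowest in siR_Nostrill (144 against 150). Ctnnd1, for p120 catenin, which holds cadherins at the membrane, was at 46.42, 22.28 and 28.5 FPKM in siR_Ctrl, 31.4, 18.41 and 40.63 in siR_Ctrl + IFN-γ, 19.8, 20.97 and 31.28 in siR_Nostrill, and 46.28, 37.15 and 30.47 in siR_Nostrill + IFN-γ. Its replicates spread up to 2.21-fold. Ctnnb1 and Ctnna1 exceeded 95.2% and 93.4% of listed genes in mean FPKM. Catenins also serve other cadherins, of which Cdh2 was measured at 21.9 FPKM. Exons of Ctnnb1, Ctnna1 and Ezr overlap a gene on the opposite strand (Ulk4, Lrrtm2 and Sytl3) and those of Ctnnd1 a gene on the same strand (Gm28635) in GENCODE vM21, and the strand setting of the counts is not given, so their reads may be shared.

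In the desmosome, genes of the plaque were expressed, while desmoplakin was near 0. Pkp4, for p0071, a plakophilin-like protein of adherens junctions and desmosomes, was at 32.89, 25.63 and 28.04 FPKM in siR_Ctrl, 32.3, 28.68 and 34.38 in siR_Ctrl + IFN-γ, 25.39, 23.79 and 26.44 in siR_Nostrill, and 37.58, 34.06 and 33.22 in siR_Nostrill + IFN-γ. Its siR_Nostrill + IFN-γ libraries were all above those of siR_Nostrill. Pkp2, the plakophilin shared by epithelia and heart, was at 23.7, 21.54 and 22.7 FPKM in siR_Ctrl, 23.23, 21.93 and 23.82 in siR_Ctrl + IFN-γ, 19.15, 19.94 and 18.61 in siR_Nostrill, and 20.41, 20.57 and 20.08 in siR_Nostrill + IFN-γ. All 6 siR_Nostrill libraries, with or without IFN-γ, lay below all 6 siR_Ctrl libraries. Pkp3, the plakophilin of most epithelial desmosomes, was at 2.39, 2.61 and 3.13 FPKM in siR_Ctrl, 2.69, 3.06 and 2.58 in siR_Ctrl + IFN-γ, 2.81, 2.85 and 2.59 in siR_Nostrill, and 1.81, 1.83 and 2.2 in siR_Nostrill + IFN-γ. Here the last group was lowest, with no overlap with any other. Jup, for plakoglobin, which is shared by both adhesive junctions, had a mean of 9.64 FPKM (range 6.7 to 11.4). Dsp, for desmoplakin, had 13 reads in all and a mean of 0.0075 FPKM.

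Krt19 was the only one of the 5 member keratins with a mean above 0.2 FPKM. It was at 1.57, 2.76 and 1.22 FPKM in siR_Ctrl, 1.56, 2.34 and 2.29 in siR_Ctrl + IFN-γ, 1.48, 2.35 and 1.38 in siR_Nostrill, and 0.91, 1.5 and 1.65 in siR_Nostrill + IFN-γ, and the groups overlapped. Krt8 and Krt18, the pair from which simple epithelia build their filaments, had means of 0.166 and 0.0408 FPKM, with 57 and 10 reads in all. Krt20, the keratin of differentiated enterocytes, and Krt7, of ducts, had means of 0.0708 and 0.07 FPKM. In the apical cortex, Ezr, for the membrane-actin linker ezrin, was at 25.5, 23.48 and 23.27 FPKM in siR_Ctrl, 23.85, 21.53 and 23.91 in siR_Ctrl + IFN-γ, 17.38, 19.48 and 22.69 in siR_Nostrill, and 16.71, 17.61 and 18.84 in siR_Nostrill + IFN-γ. With IFN-γ, each siR_Nostrill library was below each siR_Ctrl library. Vil1, for the microvillar protein villin, had a mean of 0.0342 FPKM. The transcription factors Elf3 and Grhl2 and the splicing factor Esrp2, which keep epithelial gene expression and splicing, had means of 0.0483, 0.0333 and 0.0167 FPKM. The 11 members that did not pass the filter (Cldn2, Tjp3, Dsp, Krt7, Krt8, Krt18, Krt20, Vil1, Esrp2, Grhl2 and Elf3) had at most 8 reads in a library. Without the filter, none of these 11 was called in any of the 5 comparisons described further on (lowest edgeR adjusted p 0.422), and 1 value, of Grhl2 between siR_Nostrill and siR_Ctrl without IFN-γ, had an unadjusted p below 0.05 (log2 fold change 1.53, SE 0.62). Vil1, with at most 4 reads in a library, was at 0.02, 0.0 and 0.02 FPKM in siR_Ctrl and 0.06, 0.07 and 0.06 in siR_Ctrl + IFN-γ without overlap, and was not called without the filter (log2 fold change 2.14, SE 1.0, edgeR adjusted p = 0.43).

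**Figure D2:**
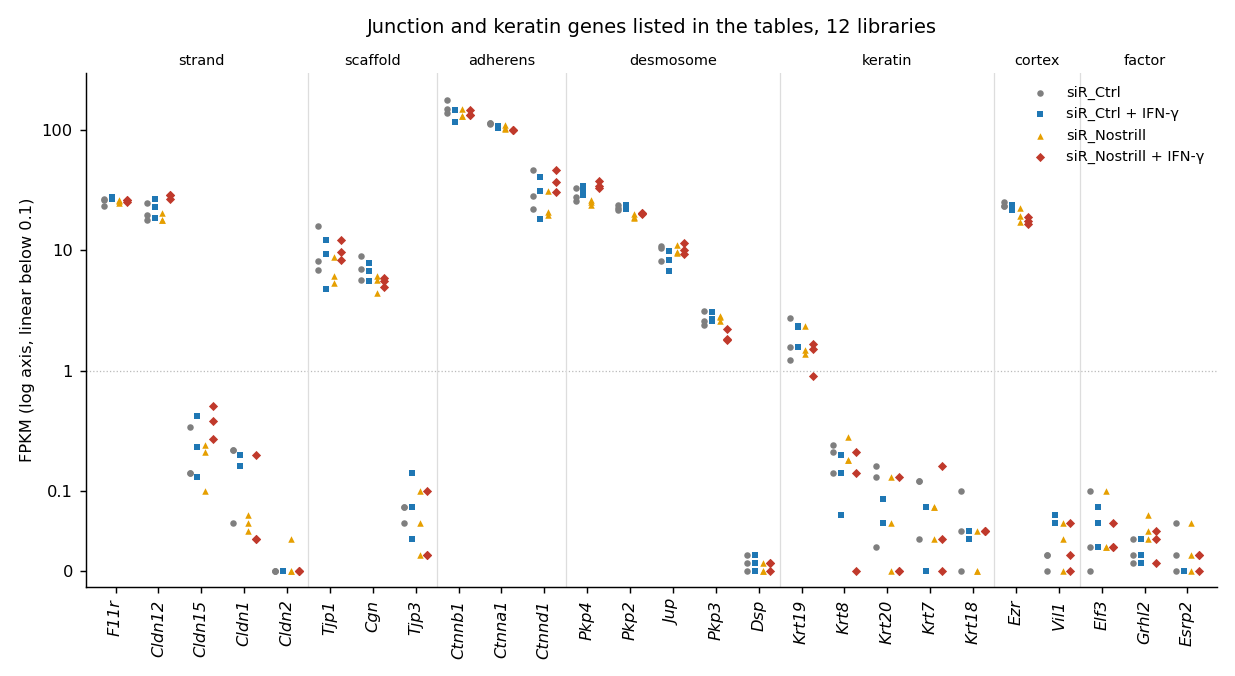
FPKM of the 26 listed junction and keratin genes (y axis, logarithmic above 0.1) in each of the 12 libraries, ordered by role and coloured by group, with a dotted line at 1 FPKM. The catenins lie near or above 100 FPKM or between 18.4 and 46.4 (Ctnnd1), and keratins other than Krt19 lie at or below 0.28 FPKM.

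Sequences just before and after the start sites of the members were searched for motifs. RefSeq promoter windows of GRCm38.p6, from 250 bases before to 50 after each start, were held for 27 of the 38 members, and 5 motifs, chosen after the levels were known, were searched on both strands. The E-box CACCTG, which Snail and Zeb factors bind (CAGGTG on the other strand), was held by windows of 2 of 11 members that passed the filter (F11r and Pkp4). It was held by 7 of 9 listed members that did not pass (Dsp, Elf3, Krt18, Krt7, Krt8, Tjp3 and Vil1) and by 7 of 7 members whose levels were not analysed here. Over all 32851 windows the share with this E-box was 20.2%, and by gene it was 19.5% of those that passed the filter, 30.4% of those listed that did not pass and 23.3% of those with a window that are not listed in the tables. Examples show the E-box in capitals, on the strand of each gene, for a keratin pair, a duct keratin and a transcription factor that were near 0 and for the 2 expressed members that hold it. Their places are chr15:102004439-102004462 (Krt8, minus strand, E-box 111 bases before the start), chr15:102027993-102028016 (Krt18, plus strand, 214 before), chr15:101412350-101412373 (Krt7, plus strand, 44 before), chr1:135258598-135258621 (Elf3, minus strand, 140 before), chr1:171437430-171437453 (F11r, plus strand, 122 before) and chr2:59161813-59161836 (Pkp4, plus strand, 47 before). For Pkp4 this is the distance to the later of 2 annotated starts, and the E-box lies inside the span transcribed from the earlier.
Krt8: tgctgccctCACCTGagtcccgtc
Krt18: ggctaacacCACCTGctatccttt
Krt7: ccctgtcccCACCTGtgtgcgctc
Elf3: tatgcaaatCACCTGggacaggga
F11r: tcggggttgCACCTGcgtacggtg
Pkp4: cgcgataggCAGGTGtgtgcgtcc
A match of 6 letters is a description of the sequence and not a measured binding site.

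Of the motifs linked to IFN-γ, the GAS element TTCNNNGAA was found among members in windows of Cldn12 and Cldn7 and in 8.3% of all windows. By gene it was held by 1 of 11 members that passed the filter (9.09%), beside 8.32% of all genes that passed. In Cldn12 (gene at chr5:5505015-5514976, minus strand) it lay at chr5:5514861-5514887 with its flanks, 29 and 89 bases before 2 of 3 annotated starts and inside the span transcribed from the other. It is shown, in capitals, because Cldn12 was one of the 2 members called with IFN-γ in siR_Nostrill cells, a call lost in 3 of 12 fits with a library left out. In siR_Ctrl cells Cldn12 was not called. The windows of Pkp4, the other member called with IFN-γ in siR_Nostrill cells, held no GAS match.
Cldn12: cctgactggTTCCCTGAAgcctccggg
The core of the interferon-stimulated response element, searched as a pair of GAAA with any 2 bases between, was held by Cldn7 alone among members and by 3.44% of windows. The Grainyhead motif AACCGGTT was held by no member window and by 0.146% of windows. The NF-kB core, searched as GGG and CC with any 5 bases between, was held by 8 of 11, 7 of 9 and 4 of 7 members in the order above and by 50.8% of windows. By gene the shares in that order were 72.9%, 58.8% and 40.8%.

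Some members with long transcripts varied with a property of the library. The ratio of summed FPKM to summed TPM, which falls when long transcripts take more of the reads, ranged from 0.571 in siR_Ctrl replicate 1 to 0.795 in siR_Ctrl + IFN-γ replicate 2. Tjp1, with the longest effective length among the expressed members (6679 nt), was highest in the first of these libraries and lowest in the second, and Ctnnd1 (5698 nt) likewise. Ctnnb1 (3337 nt) was also highest in the first and lowest in the second. F11r (2246 nt), Pkp2 (2654 nt) and the longer Pkp4 (4180 nt) and Cgn (4755 nt) did not show this order over all libraries. Within each of the groups, however, Pkp4 fell as the ratio rose, and Cgn and Pkp2 did so in both groups of siR_Ctrl cells. Because the members are part of the sums, the plot is a description, and whether preparation or biology set the trend was not tested. Over all genes tested, log2 fold changes correlated with effective length (Spearman -0.422 and 0.48 with IFN-γ in siR_Ctrl and siR_Nostrill cells). Between the siRNAs the correlation was -0.654 without IFN-γ and 0.262 with it, and for the interaction tested further on it was 0.647. Once the trend of length was removed from each library, the mean standard error of the log2 fold change of Tjp1 went from 0.33 to 0.151 and that of Ctnnd1 from 0.292 to 0.138, while that of Pkp3 (2561 nt) went from 0.159 to 0.148. That of Cgn went from 0.151 to 0.0855 and that of Pkp4 from 0.0821 to 0.0645.

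**Figure D3:**
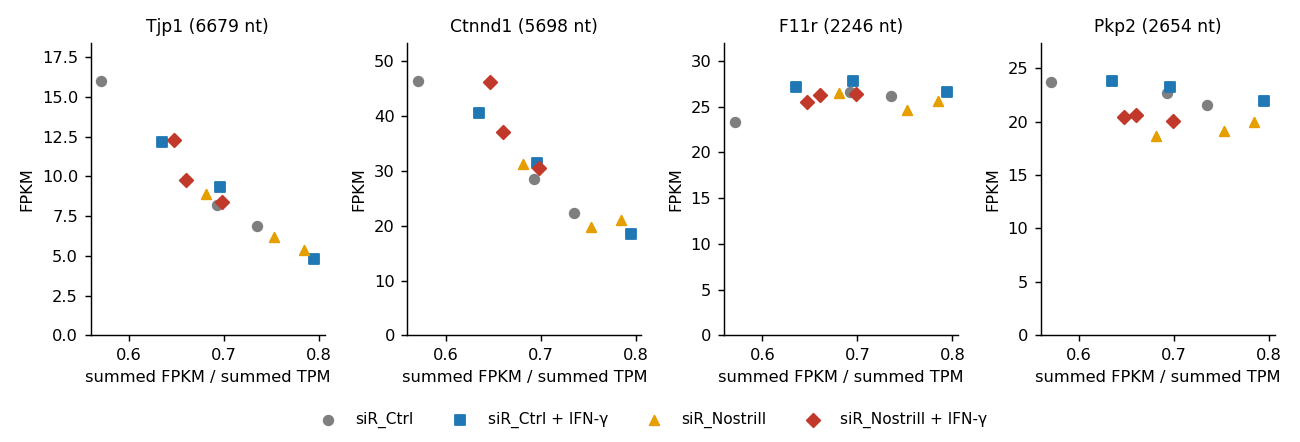
FPKM of 4 members (y axes, from 0) against the ratio of summed FPKM to summed TPM of each library (x axes), coloured by group, with the effective length in each title. Tjp1 and Ctnnd1 fall from left to right, whereas F11r stays between 23.3 and 27.8 FPKM, and Pkp2 between 18.6 and 23.8 with the siR_Nostrill libraries lower.

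The first comparison asked whether IFN-γ alters these genes in siR_Ctrl cells. No member was called at 0.05 after Benjamini-Hochberg adjustment of the p-values of edgeR's quasi-likelihood test (0 of 15), against 5.45% of the 11900 genes tested, and none was called with DESeq2 (0 of 19 members given an adjusted p, against 6.47% of all such genes). At an unadjusted p below 0.05 there was 1 member, against 14.6% of all genes. This member was Pkp4, with a log2 fold change of 0.21 (SE 0.08, edgeR adjusted p = 0.229), and its groups overlapped. Cldn12 and F11r had log2 fold changes of 0.18 (SE 0.11) and 0.17 (SE 0.09), and Tjp1 of -0.18 (SE 0.33), with edgeR adjusted p of 0.554, 0.436 and 0.831. Without siR_Ctrl replicate 1 the value of Tjp1 was 0.24, and without siR_Ctrl + IFN-γ replicate 2 it was 0.09. With the length trend removed, 2 members were called in edgeR, against 11.1% of all genes under that setting, both higher, namely Pkp4 (0.30, SE 0.06, adjusted p = 0.00631) and Cldn12 (0.24, SE 0.06, adjusted p = 0.0262). The median log2 fold change of the 15 members was 0.086 and that of all genes tested was -0.009.

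In siR_Nostrill cells, IFN-γ was accompanied by higher Cldn12 and Pkp4. Cldn12 went from 18.7 ± 1.44 to 28.1 ± 1.32 FPKM (SD, n = 3), a log2 fold change of 0.57 (SE 0.11, edgeR adjusted p = 0.0106). Pkp4 went from 25.2 ± 1.33 to 35.0 ± 2.31 FPKM, a log2 fold change of 0.46 (SE 0.08, edgeR adjusted p = 0.00479). With the length trend removed, Cldn12 was at 0.51 (SE 0.06, edgeR adjusted p = 6.79e-05) and Pkp4 at 0.34 (SE 0.06, edgeR adjusted p = 0.00201). Both were higher in 3 of 3 libraries than in any siR_Nostrill library. These were 2 of 15 members, against 6.78% of all genes called and 5.24% called and higher. Pkp4 remained called when any 1 of the 12 libraries was left out, whereas Cldn12 passed in 9 of 12 such fits and missed the threshold without siR_Nostrill replicate 1 (0.54, adjusted p = 0.0514), siR_Nostrill replicate 2 (0.54, adjusted p = 0.0625) or siR_Nostrill + IFN-γ replicate 2 (0.55, adjusted p = 0.0505), all in edgeR. Pkp3 went the other way, from 2.75 ± 0.14 to 1.95 ± 0.22 FPKM without overlap, and did not pass (log2 fold change -0.52, SE 0.16, edgeR adjusted p = 0.0835). It passed in DESeq2 (adjusted p = 0.0445), which called 3 of the members, against 10.5% of all genes given an adjusted p, and with the length trend removed (-0.51, edgeR adjusted p = 0.0316), where 4 members were called, against 19.0% of all genes. At an unadjusted p below 0.05 there were 3 members, namely Pkp4, Cldn12 and Pkp3, against 21.9% of all genes. Ctnnd1 had a log2 fold change of 0.64 (SE 0.29, edgeR adjusted p = 0.231) and was called with the length trend removed (0.44, adjusted p = 0.0388). Tjp1 had one of 0.56 (SE 0.33, edgeR adjusted p = 0.332) and F11r one of 0.01 (SE 0.09, adjusted p = 0.964). The median over the 15 members was 0.008, beside -0.001 for all genes.

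**Figure D4:**
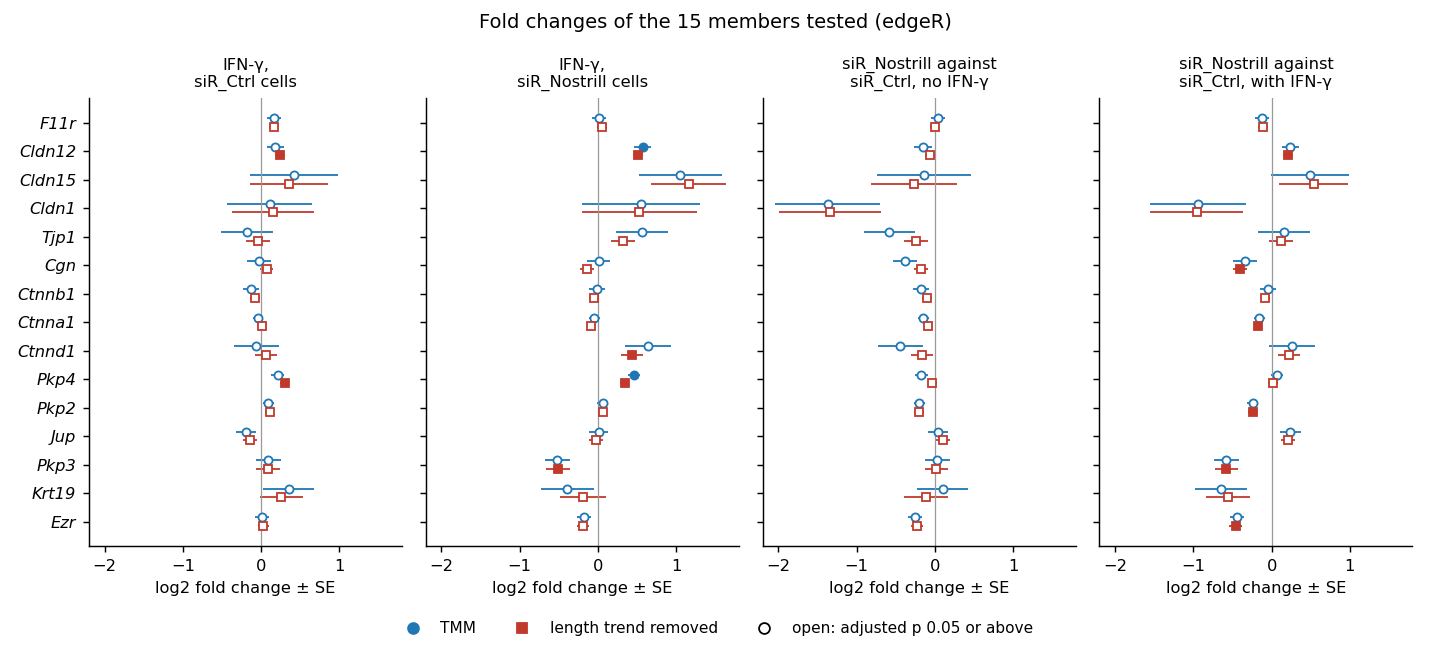
Log2 fold changes (x axes, error bars are SE) of the 15 tested members in 4 comparisons, with TMM normalization (blue circles) and with the length trend removed (red squares). Filled symbols have an adjusted p below 0.05, and among circles these are Cldn12 and Pkp4 with IFN-γ in siR_Nostrill cells alone.

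siR_Nostrill was next compared with siR_Ctrl without IFN-γ. No member was called in edgeR (0 of 15), where 0.218% of all genes were, or in DESeq2 (0 of 13 members given an adjusted p, against 2.35% of all such genes). At an unadjusted p below 0.05 there were 3 members, all lower, against 13.8% of all genes and 7.61% lower. These were Ezr, from 24.1 ± 1.23 to 19.8 ± 2.67 FPKM (log2 fold change -0.25, SE 0.09, edgeR adjusted p = 0.293), Pkp2, from 22.6 ± 1.08 to 19.2 ± 0.669 FPKM (-0.20, SE 0.07, edgeR adjusted p = 0.295), and Cgn, from 7.21 ± 1.71 to 5.42 ± 0.864 FPKM (-0.38, SE 0.15, edgeR adjusted p = 0.326). In FPKM, Ezr and Pkp2 did not overlap between the groups and Cgn did, and in TPM Ezr overlapped too. With the length trend removed the value of Cgn was -0.18 (SE 0.09) and those of Ezr and Pkp2 were -0.23 (SE 0.08) and -0.20 (SE 0.06), and none was called. The median of the 15 members was -0.172, beside 0.005 for all genes, and with the length trend removed it was -0.11 beside 0.004.

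With IFN-γ present in both, siR_Nostrill cells again had no member called in edgeR (0 of 15, against 0.429% of all genes), although Ezr came near. Ezr was at 17.7 ± 1.07 FPKM in siR_Nostrill + IFN-γ and 23.1 ± 1.36 in siR_Ctrl + IFN-γ (log2 fold change -0.44, SE 0.09, edgeR adjusted p = 0.0618). Pkp3 was at 1.95 ± 0.22 and 2.78 ± 0.251 FPKM (-0.58, SE 0.16, edgeR adjusted p = 0.12), and Pkp2 at 20.4 ± 0.25 and 23.0 ± 0.967 FPKM (-0.24, SE 0.07, edgeR adjusted p = 0.153). None of these 3 overlapped between the groups in FPKM, and in TPM Pkp2 did. DESeq2 called the same 3 of the 12 members to which it gave an adjusted p, against 5.65% of all such genes, with adjusted p of 0.000399 for Ezr, 0.0355 for Pkp3 and 0.0176 for Pkp2. At an unadjusted p below 0.05 there were 5 members in edgeR, these 3 with Cgn (-0.34, SE 0.15) and Ctnna1 (-0.16, SE 0.07), all lower, against 14.5% of all genes and 7.67% lower. With the length trend removed, 6 members passed in edgeR, of which these 5 were lower (adjusted p from 0.00295 for Ezr to 0.0244 for Ctnna1) and Cldn12 was higher (0.21, SE 0.06, adjusted p = 0.0454). Under that setting 1539 of all genes (12.9%) were called in place of 51. The median of the 15 members was -0.122, beside -0.003 for all genes.

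**Figure D5:**
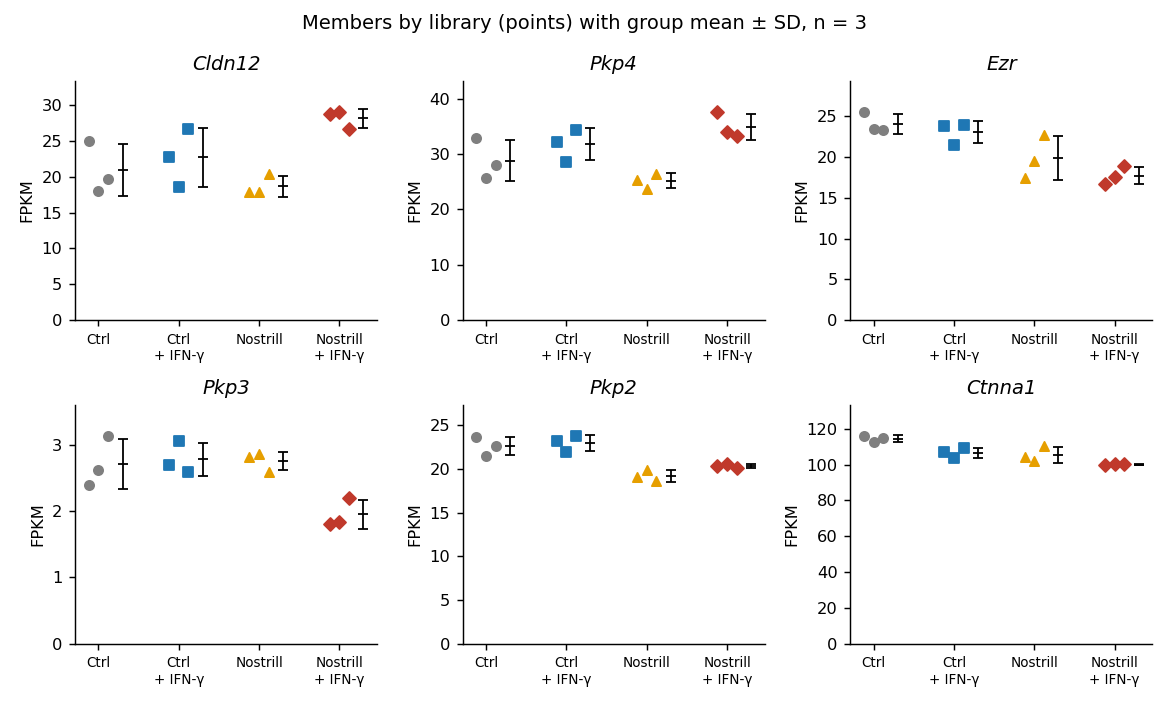
FPKM of Cldn12, Pkp4, Ezr, Pkp3, Pkp2 and Ctnna1 (y axes, from 0) in each library by group, with the group mean and SD (n = 3) at the right of the points. The means of Cldn12 and Pkp4 are highest and those of Pkp3, Ezr and Ctnna1 lowest in siR_Nostrill + IFN-γ, and Pkp2 is lower in both siR_Nostrill groups.

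Whether IFN-γ acted differently in the cells with each siRNA was tested as an interaction. No member passed in edgeR (0 of 15) or DESeq2, nor did any other gene (0.0% of those tested). At an unadjusted p below 0.05 there were 2 members, against 10.7% of all genes, namely Pkp3 (-0.60, SE 0.22) and Cldn12 (0.39, SE 0.16), both with an edgeR adjusted p of 0.43. The call of Pkp4 and Cldn12 in siR_Nostrill cells is therefore not shown to differ from siR_Ctrl cells. For Pkp4 the interaction was 0.24 (SE 0.12, edgeR adjusted p = 0.43), and 0.04 (SE 0.09) with the length trend removed.

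Among 68 further listed genes of junctions, polarity, keratins, the cortex and epithelial transcription, 42 passed the filter. The keratins Krt5 and Krt14 (0.01 and 0.0217 FPKM) and the tricellular junction gene Lsr (0.015 FPKM) were among those that did not, and these 3 and the next 4 genes were chosen after their levels were seen. Moesin (Msn) and radixin (Rdx), relatives of ezrin, were at 259 and 46.2 FPKM beside 21.2 for Ezr, connexin 43 (Gja1) was at 36.1 FPKM, and the keratin Krt80 was at 9.8 FPKM. With IFN-γ in siR_Ctrl cells 2 of the 42 fell and none rose, namely Cldn9 (log2 fold change -1.09, SE 0.23, edgeR adjusted p = 0.0162) and the plakophilin Pkp1 (-0.38, SE 0.09, edgeR adjusted p = 0.0367), against 5.45% of all genes called and 0.748% called and lower. With the length trend removed Pkp1 was not called (-0.29, SE 0.09, edgeR adjusted p = 0.0591). In siR_Nostrill cells none was called and higher with IFN-γ in edgeR, although Gja1 went from 32.6 ± 3.34 to 43.4 ± 4.67 FPKM without overlap (log2 fold change 0.39, SE 0.11, edgeR adjusted p = 0.0591) and was called in DESeq2 (adjusted p = 0.0202) and with the length trend removed (edgeR adjusted p = 0.00736). The catenin Arvcf, a relative of Ctnnd1 and Pkp4, fell (-0.43, SE 0.11, edgeR adjusted p = 0.0451). Arvcf was also the one gene of the 42 called between siR_Nostrill and siR_Ctrl with IFN-γ, where it was lower (-0.69, SE 0.11, edgeR adjusted p = 0.0341), against 0.429% of all genes. With 1 library left out in turn, Cldn9 stayed called in 9 of 12 fits, whereas Pkp1 did in 3 and Arvcf in 2 for each comparison (highest edgeR adjusted p 0.0759, 0.147 and, for Arvcf, 0.177 and 0.163). Without IFN-γ none of the 42 was called between the siRNAs in edgeR, against 0.218% of all genes, and 9 had an unadjusted p below 0.05, of which 8 were lower, against 13.8% of all genes and 7.61% lower. DESeq2 called 1 of them, Krt80 (-0.56, adjusted p = 0.0407), against 2.35% of all genes given an adjusted p.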

How the data were processed

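Poly(A)-enriched RNA of IEC4.1 cells (4 groups, 3 libraries each, grouped by the sample labels) was sequenced on a DNBSEQ platform. Filtered reads had been aligned by the authors with HISAT2 and Bowtie2 to GRCm38.p6. The read counter is not stated in the sources used. The authors deposited estimated counts per gene, not normalized, for each library. The authors also deposited FPKM (the methods name RPKM) and TPM values, both scaled for transcript length. Of these counts, 90.61% to 91.57% per library were exactly whole as deposited, with no tolerance.

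Counts were rounded and tested with edgeR 4.0.16 in R 4.3.3 (quasi-likelihood test, TMM, filterByExpr, all 12 libraries in one fit, Benjamini-Hochberg over 11900 genes, threshold 0.05). DESeq2 1.42.0 and the other alternatives are given in the closing section. The length trend was a lowess fit (span 0.3) of each library's deviation on effective length. The code was tested on simulated data. The p-values of this fit set a difference between groups against the spread between libraries of a group. That spread was estimated over all 4 groups together, with information shared between genes.

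The members and lists were chosen with earlier results of these data known. Every listed member was named with its level. Values by library and, where the filter was passed, tests were given for members called in any comparison, the 5 with the highest mean FPKM, Cldn2, Tjp1, Ocln (not analysed here) and F11r, and members with an unadjusted p below 0.05 and no overlap. Values of Krt19 and Cgn were added after they were seen. From the other lists, called genes were named, apart from some that are not reported here. Krt5, Krt14, Lsr, Msn, Rdx, Gja1 and Krt80 were added after their values were seen. Sequences are from RefSeq (GRCm38.p6).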

Additional observations from a re-analysis of the deposited data

How the results depend on the processing

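The log2 fold changes of Cgn, Cldn12, Ctnna1, Ctnnd1, Ezr, F11r, Pkp2, Pkp3, Pkp4 and Tjp1, each in the comparisons where it is discussed, kept their sign under DESeq2, its size factors, no filter, only the groups compared (not for the interaction), the replicate block, the length trend removed, and each library left out, except 2 that were not called. Those of Cldn9, Pkp1 and Arvcf were recomputed with DESeq2, the length trend removed and each library left out, and stayed below 0 where they were called. With single libraries left out, F11r with IFN-γ in siR_Nostrill cells ranged from -0.02 to 0.03, and was -0.01 without siR_Nostrill replicate 1, -0.0016 without siR_Nostrill replicate 3 and -0.02 without siR_Nostrill + IFN-γ replicate 3. Tjp1 with IFN-γ in siR_Ctrl cells ranged from -0.46 to 0.24, and was 0.24 without siR_Ctrl replicate 1 and 0.09 without siR_Ctrl + IFN-γ replicate 2. Members called with the length trend removed numbered 2, 4, 0, 6 and 0 in the order of the 5 comparisons of the report, beside 0, 2, 0, 0 and 0, and genes called numbered 1321, 2256, 406, 1539 and 0 beside 649, 807, 26, 51 and 0. With only the groups compared, 4 members and 1997 genes were called with IFN-γ in siR_Nostrill cells, 341 genes in siR_Ctrl cells, and 0 in both comparisons of the siRNAs, where 1143 and 1563 genes had an unadjusted p below 0.05. With DESeq2, 3 members and 601 genes were called between the siRNAs with IFN-γ, 257 genes without it, and 1330 genes with IFN-γ in siR_Nostrill cells. Without the filter, 30 genes were called between the siRNAs with IFN-γ. With each library left out in turn, members called with IFN-γ in siR_Nostrill cells were 1 to 2, and genes called were 489 to 589 and 491 to 1138 with IFN-γ in siR_Ctrl and siR_Nostrill cells, and 0 to 37 and 0 to 72 between the siRNAs without and with it. The causes were not tested. The median level of the 15 members that passed the filter was 21.2 as FPKM and 30.8 as TPM, which are different units. Compared as TPM, the median gene shifted by -0.167, 0.155, -0.183 and 0.119 on the log2 scale in the first 4 comparisons, and relative to that shift Cldn12 and Pkp4 were at 0.57 and 0.46 with IFN-γ in siR_Nostrill cells and Ezr at -0.44 between the siRNAs with IFN-γ.

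Samples with the same replicate number correlated in their deviations between -0.495 and 0.725, so the number was not taken to pair them. With the replicate block, 0, 2, 0, 0 and 0 members and 644, 943, 18, 32 and 0 genes were called. Levels below about 0.2 FPKM rest on a few reads per library, which limits what can be said of most keratins.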
